A study of Mus musculus with 2 samples.

Results

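Metabotropic glutamate receptors are the receptors through which glutamate, the main excitatory transmitter of the brain, acts on G proteins rather than by opening an ion channel. The report covers the 6 receptor genes Grm2, Grm3, Grm4, Grm5, Grm7 and Grm8, taken as every non-control array probe whose accession belongs to one of them. They were read by 9 probes, out of 20660 named genes on the array, and all 9 probes were well above background on both arrays. The RNA came from brain tissue of male C57Bl/6 N mice aged 12 weeks that were either wild type (Il18+/+) or lacked the cytokine interleukin-18, which acts on immune cells (Il18-/-). Total RNA of 7 mice was pooled per genotype and each pool was hybridised to 1 one-colour Agilent array. The sources used here do not state which part of Il18 was deleted or how, and neither group is described as treated. The labels give the tissue as hippocampus, whereas the extraction protocol names prefrontal cortex.

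These receptors fall into groups I, II and III. Group I, to which Grm5 belongs, couples to Gq proteins and phospholipase C, sits mostly on the postsynaptic side and drives calcium release and forms of synaptic depression. Group II, Grm2 and Grm3, and group III, Grm4, Grm6, Grm7 and Grm8, couple to Gi and Go proteins, lower cyclic AMP and, on nerve terminals, restrain transmitter release. In the hippocampus Grm5 is abundant in pyramidal cells, Grm2 is known from dentate granule cells and their mossy fibres, Grm3 is also made by glia, and Grm7 and Grm8 sit at the active zones of terminals.

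Each genotype is 1 pool on 1 array, so the differences have no replicate check and were not tested, and every value describes these 2 arrays. A level is the log2 processed signal of a probe minus that array's 75th percentile, and a difference is the level in Il18-/- minus the level in Il18+/+. On the arrays 67.2% of the probes in Il18+/+ and 65.4% in Il18-/- were well above background. The probe for Il18 read 2.80-fold lower in Il18-/-, which does not check the genotype because its place relative to the deletion is not known. Each receptor probe had 1 spot, so 2 outside measures of technical error are given. The scanner software's own estimate of signal error came to 0.20 for the difference of a bright probe. Among the receptor probes it ran only from 0.20 at the brightest to 0.22 at the dimmest. It thus hardly depended on the probe and is not a spread measured on repeated spots. Probes present in 10 spots gave a standard deviation of the difference with a median of 0.07. Neither measure covers differences between animals or pools, and precision is limited by having 2 arrays. Repeated spots share the labelling and hybridisation of their array, so their spread leaves out technical variation between arrays. Their 95th percentile, given below, is itself a standard deviation and not a limit on a difference, so a value above it need not exceed technical error. In these bulk pools fewer cells of a type and less RNA per cell cannot be told apart.

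None of the 6 receptor genes differed between genotypes by 1.5-fold or more, against 4.26% of the 15738 measured genes, 1.68% higher and 2.57% lower. Their differences lay between -0.26 and 0.15, with 3 genes higher and 3 lower in Il18-/- and a median of -0.01. The median over all measured genes was 0.01, and 90% of them lay between -0.45 and 0.33. The median size of the difference, without its sign, was 0.13 among the receptors and 0.12 among all measured genes. The receptor genes thus sat inside the bulk of the array, while single probes of Grm5 differed from each other more than probes of most genes do.

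**Figure D1:**
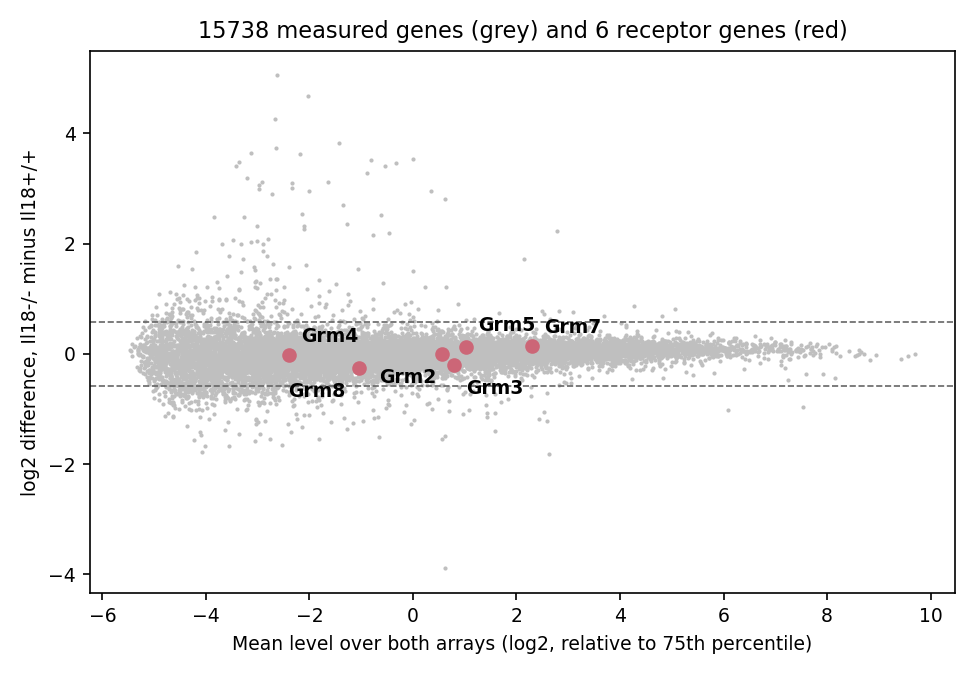
Difference between genotypes (Il18-/- minus Il18+/+, log2) against mean level over both arrays (log2, relative to the 75th percentile) for 15738 measured genes in grey and the 6 receptor genes in red, with dashed lines at 1.5-fold. All 6 receptor genes lie between the dashed lines, with Grm8 the lowest at -0.26 and Grm7 the highest at 0.15.

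Grm5 encodes the group I receptor that binds Homer scaffolds at the edge of the synapse. It was read by 3 probes, and these disagreed. The probe with the most signal, A_55_P2033425, read 11218 in Il18+/+ and 12188 in Il18-/-, a difference of 0.09 or 1.06-fold. A second probe named for the same transcript, A_55_P2112464, read 772.6 and 617.7, a difference of -0.35 or 1.28-fold lower in Il18-/-. Both are listed under the RefSeq transcript NM_001143834. The third probe, A_55_P2316783, is listed under another Grm5 transcript, NM_001081414, and read 286.8 in Il18+/+ and 447.7 in Il18-/-. That is a difference of 0.61 or 1.53-fold higher in Il18-/-, and it was the only one of the 9 receptor probes at 1.5-fold or more, a size that 2.02% of all measured probes reached upward, 3.49% downward and 5.51% in either direction. It stayed below 1.5-fold in 3 of 8 settings, at 0.57 with normexp background correction, 0.55 in the authors' deposited values and 0.30 with spike-in scaling. Under the spike-in scaling A_55_P2112464 was the receptor probe past 1.5-fold, at -0.66.

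The mean over the 3 Grm5 probes was 0.12, or 1.08-fold higher in Il18-/-, with a standard deviation of 0.48 between probes. The second probe and the third lay 0.97 apart on the log2 scale. Among the 595 genes with 3 measured probes the median distance between the highest and lowest probe was 0.29, and 16 genes, Grm5 included, or 2.69%, were at least as far apart as Grm5. Probes on both sides of 0 are common in that set, occurring in 58.5% of those genes. The difference of 0.61 exceeded the software error of 0.21 for that probe and the 95th percentile of the standard deviations of repeated spots at a similar level, 0.16, and the difference of -0.35 likewise exceeded 0.20 and 0.11. Without the third probe the Grm5 mean was -0.13, and without the second it was 0.35, so the direction of the gene's mean rests on 1 probe.

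The spots around the third Grm5 probe did not share its difference. Its 18 nearest spots above background on both arrays had a median difference of -0.02, and 1 of them was 1.5-fold or more higher in Il18-/-. Around A_55_P2112464 the median was -0.03, and none of the 18 was 1.5-fold or more lower. Of all measured probes 2.02% were that much higher and 3.49% that much lower, so counts over 18 spots say little. Of the 3970 measured probes within 0.5 log2 of the third probe's level, 2.57% differed by at least as much in either direction. For the second probe the corresponding share was 7.29% of 3527 probes. Probe sequences were not used here, so the 3 probes could not be placed on the transcripts of Grm5.

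**Figure D2:**
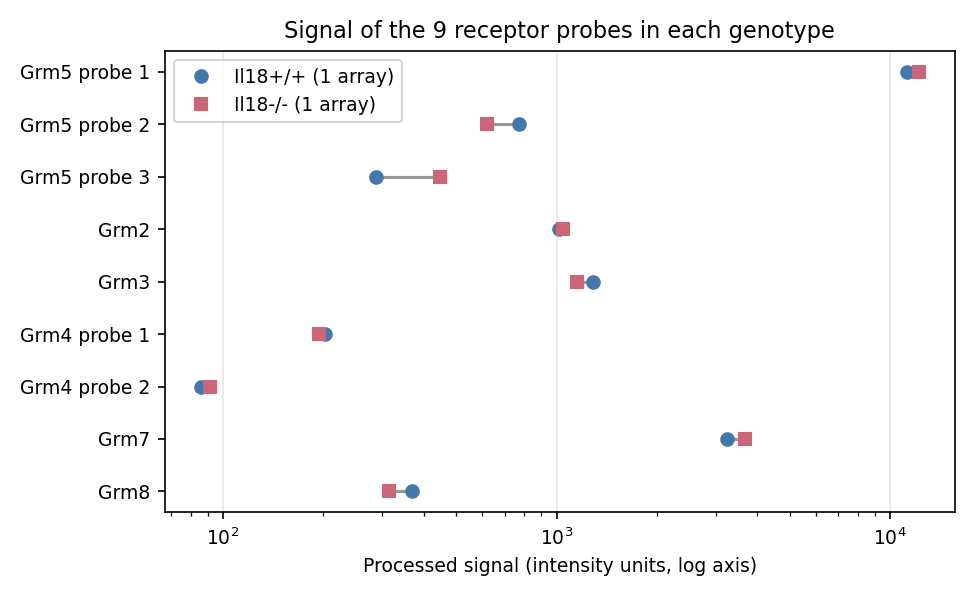
Processed signal (intensity units, log axis, not scaled between arrays) of the 9 receptor probes, with a circle for the Il18+/+ array and a square for the Il18-/- array. The Grm5 probes move in different directions, from 286.8 to 447.7 for probe 3 and from 772.6 to 617.7 for probe 2, while the pair for Grm2 nearly coincides.

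Grm2 and Grm3 form group II, and the 2 genotypes read nearly alike for Grm2. Grm2, the presynaptic autoreceptor of mossy fibres, gave a signal of 1020 in Il18+/+ and 1045 in Il18-/-. Its levels were 0.55 and 0.56, a difference of 0.00, and 98.2% of all measured genes lay at least as far from 0. Grm2 is the 1 member on the chromosome that carries Il18, with 385 measured genes between them in the gene order of GRCm38.p6. Its 20 nearest measured genes in that order had a median difference of -0.01. None of them reached 1.5-fold, against 4.26% of all measured genes, so a count over 20 genes says little.

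Grm3, which is found in glia as well as neurons, was lower in Il18-/- by a small amount. Its probe read 1287 in Il18+/+ and 1149 in Il18-/-, and its level went from 0.89 to 0.70. The difference of -0.19, or 1.14-fold, was smaller than the software error of 0.20 and larger than the 95th percentile of the standard deviations of repeated spots at a similar level, 0.09. Of all measured genes 30.5% lay at least as far from 0. Of its 18 nearest spots 2 were 1.5-fold or more lower, against 3.49% of all measured probes, with a median of -0.02 for the 18 spots.

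Grm4, Grm7 and Grm8 are the group III receptors that were measured, all of them presynaptic brakes on release. Grm4, best known from cerebellar granule cells, was read by 2 dim probes. The first, A_55_P2073682, read 203.0 and 194.4 and the second, A_55_P2010376, read 85.9 and 91.6, in Il18+/+ and Il18-/- in that order. Their differences of -0.09 and 0.06 were both smaller than the software errors of 0.21 and 0.22 and stood on opposite sides of 0. The gene's mean was -0.02. The distance of 0.16 between the probes equals the median over the 3422 genes with 2 measured probes, 0.16.

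Grm7, the low-affinity receptor of the active zone, was the highest of the 6 differences. Its signal was 3243 in Il18+/+ and 3672 in Il18-/-, and its level went from 2.22 to 2.37. The difference of 0.15, or 1.11-fold, was below the software error of 0.20 and above the 95th percentile of the standard deviations of repeated spots, 0.08. The 18 nearest spots had a median of 0.09, in the same direction, with none at 1.5-fold, against 5.51% of all measured probes.

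Grm8, a high-affinity receptor of terminals that contact particular interneurons, had the lowest difference. Its signal was 369.6 in Il18+/+ and 315.3 in Il18-/-, and its level went from -0.91 to -1.17. The difference of -0.26, or 1.20-fold lower in Il18-/-, was larger than both the software error of 0.20 and the 95th percentile of the standard deviations of repeated spots, 0.16. With normexp or without background correction, both on the median signal, it was -0.18 and -0.19, smaller than the software error. It was not unusual for the array, since 20.0% of all measured genes and 21.1% of the 4010 probes at a similar level lay at least as far from 0. Its 18 nearest spots had a median of 0.04, with none 1.5-fold or more lower, against 3.49% of all measured probes.

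**Figure D3:**
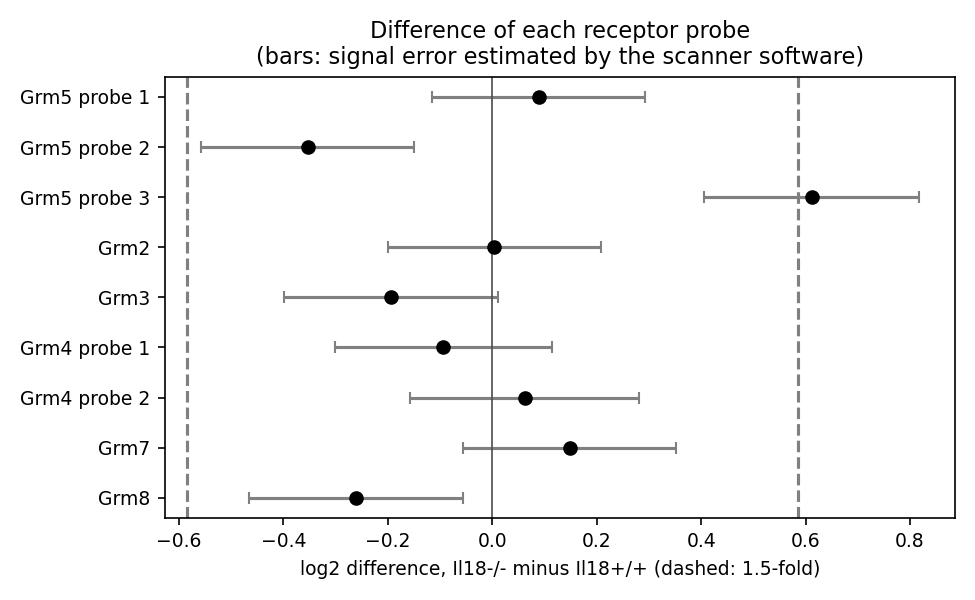
Difference between genotypes (Il18-/- minus Il18+/+, log2) of the 9 receptor probes. Bars show the signal error estimated by the scanner software, about 0.20 each way, and dashed lines mark 1.5-fold. The bars of Grm5 probe 2, Grm5 probe 3 and Grm8 do not reach 0, and only Grm5 probe 3, at 0.61, passes a dashed line.

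Grm6, a group III receptor of retinal ON bipolar cells outside these 6, was not well above background on either array.

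The lists of genes that act with these receptors held 78 genes on the array, of which 76 were measured. Of these, 39 were higher and 37 lower in Il18-/-, none at 1.5-fold or more, against 4.26% of all measured genes. The median of these pathway genes, 0.01, equalled that of all measured genes. Among 14 genes of group I and its coupling, 7 were higher and 7 lower, with a median of -0.01. Plcb4, a phospholipase C that Gq activates, read -1.12 in Il18+/+ and -1.63 in Il18-/-, a difference of -0.51 with both of its probes lower.

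Among 22 measured genes of group II and III coupling, 8 were higher and 14 lower, with a median of -0.03. Kcnj3, a subunit of the potassium channel that G proteins open, had a difference of -0.54, with probes at -0.55 and -0.52. Cacna1b, the pore of the N-type calcium channel of terminals, had a difference of -0.53 at a dim level of -4.31 in Il18+/+. Gnao1, the Go protein itself, had a mean of -0.37 from probes at -0.75 and 0.00, so its mean rests on 1 of its 2 probes.

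Among 19 measured scaffolds and adhesion partners, 12 were higher and 7 lower, with a median of 0.02, and Elfn1 was not well above background on both arrays. Homer1, which links Grm5 to calcium stores, had 5 probes between -0.75 and 0.05 and a mean of -0.44. Shank2, a scaffold that Homer binds, had a difference of -0.40 at a dim level of -4.08, while Dlg4, which encodes PSD-95, had 0.32. Of 11 genes of glutamate supply and clearance, 6 were higher and 5 lower, with a median of 0.02. The vesicular transporter genes Slc17a7 and Slc17a8 had -0.43 and -0.25. Slc1a2, the main glial glutamate transporter, had -0.39, with its 3 probes between -0.54 and -0.23. Of 10 genes of group I dependent plasticity, 6 were higher and 4 lower, with Fmr1, which encodes a translation repressor, at -0.16, Mapk3 at 0.10 and Eef2 at 0.09.

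**Figure D4:**
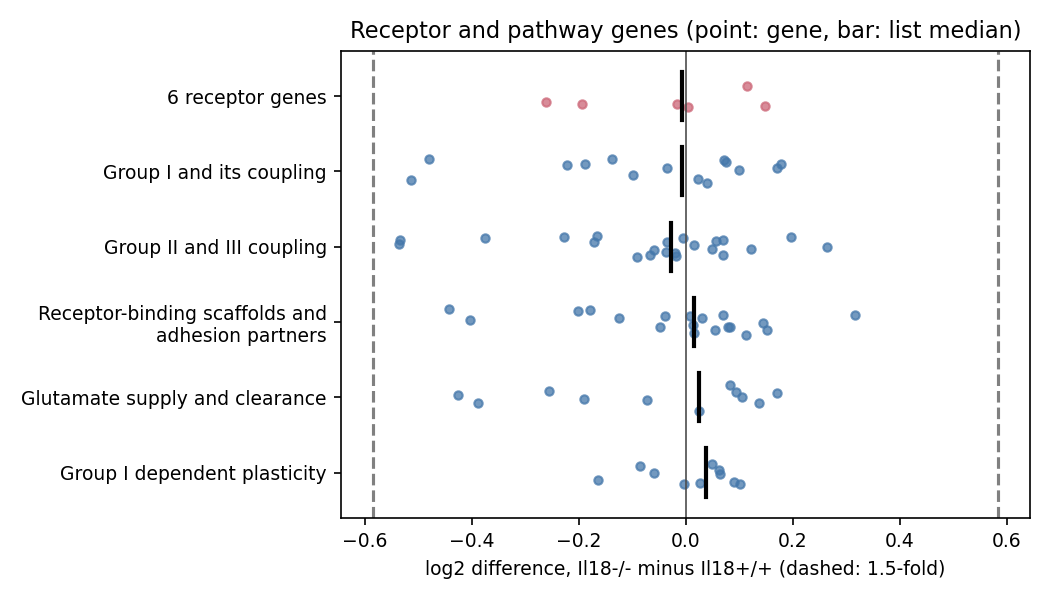
Difference between genotypes (Il18-/- minus Il18+/+, log2) of the 6 receptor genes in red and of the genes of each pathway list in blue, with a black bar at each median and dashed lines at 1.5-fold. No gene passes a dashed line, and the list medians lie between -0.03 and 0.04.

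A pattern over 2 arrays is 1 difference, so likeness to a receptor says little. Between 1061 genes, for Grm8, and 3464 genes, for Grm2, had a difference within 0.05 of a receptor's. The pathway genes nearest in difference were Ncdn for Grm2, Slc17a6 for Grm3, Rgs4 for Grm4, Dlgap1 for Grm5, Grk2 for Grm7 and Slc17a8 for Grm8.

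Marker genes of the cells that make these receptors were read beside them. All 6 markers of dentate granule cells, a cell type of the hippocampus, were well above background on both arrays, and 5 were higher in Il18-/-. Which of the named tissues was sampled was not tested with them. Their median was 0.28, and their summed level, on the linear scale where 1 is the 75th percentile, was 21.7 in Il18+/+ and 27.9 in Il18-/-. Lct had 0.41, and Tdo2 had 0.37 at a dim level of -2.99 in Il18+/+. Grm2, a gene of those cells, had 0.00. All 7 interneuron markers were lower in Il18-/-, with a median of -0.18 and a summed level of 56.9 and 50.2, led by Vip at -0.32 and Sst at -0.29. Gad1 had only -0.02, and Lhx6 had -0.05 from probes at -0.25 and 0.15. These signs hold for the 75th percentile scaling, and other scalings were not tried for the markers. Of 6 astrocyte markers 5 were higher, their median being 0.08, with a summed level of 36.5 and 38.5, while Grm3 and Slc1a2 were lower. All 5 oligodendrocyte markers were lower, with a median of -0.28, a summed level of 207.3 and 152.9, and Mobp at -0.50. Pyramidal cell markers had a median of 0.03, with 3 of 5 higher. The part of these cell types in the receptor values was not tested.

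Markers of choroid plexus, medial habenula and liver differed by more than any receptor gene. Choroid plexus markers were 1.5-fold or more lower in Il18-/- in 6 of 6 cases, with a summed level of 277.7 and 141.2, and medial habenula markers were 1.5-fold or more higher in 5 of 5 measured cases, with a summed level of 1.47 and 6.87. Liver markers were 1.5-fold or more higher in 5 of 5 measured cases. Thalamic markers had a median of -0.19, with 4 of 5 lower, among them Tnnt1 at -0.64, while Prkcd was higher at 0.44. The part of adjoining tissue in the values of Grm3, Grm4, Grm7 and Grm8 was not tested.

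Some other settings turned the sign of the smallest values, Grm2 and Grm4, and scaling to the spike-in controls also turned Grm5 and Grm7. Grm3 and Grm8 were lower and Grm5 and Grm7 higher in Il18-/- under all of 9 settings that do not use the spike-in controls. The other sign was seen for Grm2 under 5 of the 9 and for Grm4 under 3. These settings are not independent checks. Grm2, Grm3, Grm7 and Grm8 had 1 probe each, so changing the filter on dim probes or taking the brightest probe returned their main value by construction. Median centring and the authors' values only shift every difference by a constant. Scaling to the spike-in controls, RNA added in fixed amounts, lowers every difference by 0.31, the median of 8 control probes that ranged from 0.14 to 0.47. With that median all 6 receptor genes were lower in Il18-/-, from -0.57 for Grm8 to -0.16 for Grm7, and the median of all measured genes was -0.30. No receptor gene reached 1.5-fold there, against 1969 of the 15738 measured genes, 1841 of them lower, so a count over 6 genes says little. The receptor values depend on the control probe taken. The shift of the lowest would leave Grm7 not lower, and that of the highest would take Grm3 and Grm8 past 1.5-fold.

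**Figure D5:**
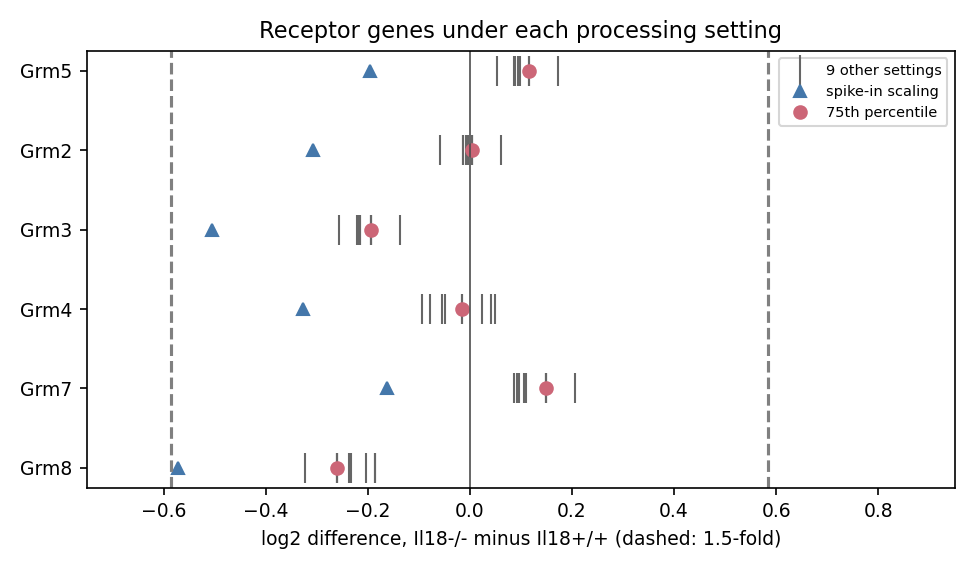
Difference between genotypes (Il18-/- minus Il18+/+, log2) of the 6 receptor genes under the 75th percentile scaling (circle), under 9 other settings (ticks) and under spike-in scaling (triangle), with dashed lines at 1.5-fold. Without the spike-in scaling Grm8 ranges from -0.32 to -0.18 and Grm7 from 0.09 to 0.21, and every triangle lies below 0.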

How the data were processed

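The deposited intensity was made by the authors with Agilent Feature Extraction 10.10.1.1 (file headers and the submitters' processing notes), on an array design that refers to mm9. Per the file headers, background subtraction and spatial detrending were done inside each array, with no scaling from one array to the other. The arrays share 1 slide and 1 scan. Spots flagged as outliers on either array were left out, log2 signals were set against each array's 75th percentile over non-control spots (694.8 for Il18+/+, 709.9 for Il18-/-), and spots of a probe were averaged. Genes needed 1 or more probes well above background in both genotypes, and probes passing this were averaged into the gene's difference. Accessions without versions were named through RefSeq genes of GRCm38.p6, and no coordinates of it are given. The authors' deposited value table held that intensity times 1 constant per array, 2.05 and 1.92, linear and uncentred. Why these constants were chosen is unknown, and its column medians were 151.5 and 139.5.

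The text names the 6 receptors, Grm6, the 3 genes of each pathway list with the largest difference (some are not reported here), and up to 2 per marker list. Members and lists were chosen with earlier results of these data known. The calculation was tested on simulated data. Normexp used limma 3.58.1 in R 4.3.3. Loess used statsmodels 0.14.6, and the rest numpy 2.4.6, scipy 1.17.1 and pandas 2.3.3 in Python 3.11.15, with figures from matplotlib 3.10.9.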

Additional observations from a re-analysis of the deposited data

How the results depend on the processing

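None of the 6 receptor genes reached 1.5-fold under any of the 10 planned settings. Of all measured genes, 221 of 15738 reached it with normexp and 1969 of 15738 with spike-in scaling, so a count over 6 genes says little. Under spike-in scaling the differences were -0.31 for Grm2, -0.51 for Grm3, -0.33 for Grm4, -0.20 for Grm5, -0.16 for Grm7 and -0.57 for Grm8, and the median of the pathway genes was -0.30. This follows from the construction, a shift of -0.31 for every probe. Grm8 was -0.18 with normexp (offset 50) and -0.19 without background correction, both on the median signal, and Grm4 was -0.094 with its brightest probe. Leaving out 1 probe was chosen after seeing the data and gave -0.094 and 0.062 for Grm4, and 0.35 and -0.13 for Grm5. The third Grm5 probe reached 1.5-fold in 5 of 8 settings and read 0.57 with normexp, 0.55 in the authors' deposited values and 0.30 under spike-in scaling, under which the second read -0.66. Of all measured genes, 670 reached 1.5-fold, against 1969 with spike-in scaling, which moves every gene downward by that shift and left 1841 of them lower. The count was 221 with normexp, 280 without background correction, 2170 with no filter on dim probes and 256 with the stricter filter. The last 2 tested more and fewer genes, and the cause of the counts with normexp and without background correction was not tested. Of the genes at 1.5-fold, 60.4% were lower in Il18-/-. The share was 50.6% with quantile normalization, 49.7% with median centring, 48.3% with loess, 48.4% with normexp and 52.5% without background correction. It was 62.5% with no filter on dim probes, 61.3% with the stricter filter and 59.6% with the brightest probe. With spike-in scaling it was 93.5%, and in the authors' values 71.3%. No paired analysis was possible because each genotype had 1 array, and for the same reason the slide was not run as a block.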
